A study of Mus musculus with 8 samples.

Results

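The regions described here are the METTL14 sites that were called in every METTL14 library of the study and lie at the edge of a protein-coding gene. They were selected on the METTL14 peak lists themselves. Peaks of the 4 METTL14 lists that shared at least 1 bp were merged, and a merged region was kept when each of the 4 libraries had a peak in it and when it lay within 2 kb of the start or end of a protein-coding gene in RefSeq for GRCm38.p6, the assembly behind mm10. Of 8091 merged regions, 468 had a peak of all 4 libraries, which is 5.78%, and 238 of these 468 lay at a gene boundary. The 238 regions are 50.9% of the constant regions (95% Wilson interval 46.3% to 55.4%, counting error only) and 2.94% of all merged regions. They lie near 298 of 21900 protein-coding genes, which is 1.36%.

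The libraries were made by CUT&RUN. METTL14 was profiled in embryonic stem cells (ESCs) of the mouse labelled Mettl3 CKO (2 libraries) and Mettl3 control (2 libraries), and METTL3 in cells labelled Mettl14 CKO (2 libraries) and Mettl14 control (2 libraries). In CUT&RUN an antibody guides a nuclease to the chromatin around its target, and the released DNA fragments are sequenced. All cells were kept in serum medium with LIF, CHIR99021 (an inhibitor of GSK3) and PD0325901 (an inhibitor of MEK). The labels do not say what CKO stands for, how the deletion was made, or whether replicate libraries derive from different cultures, so spreads and p-values over libraries may be technical. A list holds peak positions only, with no height or p-value, and the read depth behind it is unknown. The lists therefore show where a peak passed the authors' threshold, and say nothing of how strong it was. Peak lists also hold no expression, so the labelled cell type could not be checked against expressed markers. No library made with a nonspecific antibody was used here.

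METTL3 and METTL14 are the core of the complex that writes N6-methyladenosine (m6A) on nascent RNA. METTL3 is the catalytic subunit, and METTL14 is its partner, which helps to bind the RNA. Promoters of many broadly used genes and of developmental regulators are CpG islands, stretches rich in unmethylated CpG. In ESCs the islands of developmental regulators, Hox genes among them, are known as Polycomb targets, while those of housekeeping genes are active.

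Authors' METTL14 peaks numbered 3922 and 1439 in the Mettl3 CKO libraries, against 3129 and 3546 in the Mettl3 control libraries, and nearly all peaks were 149 bp wide. The second Mettl3 CKO list was the shortest, and it limits how many regions can be constant. Without that library, 407 regions at gene boundaries had a peak in each of the other 3 libraries. The 238 regions took up 6.09% and 16.6% of the Mettl3 CKO lists, against 7.64% and 6.71% of the Mettl3 control lists.

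Promoter sequences around these regions were read from the RefSeq promoter windows for GRCm38.p6, which run from 250 bases before to 50 bases after a start. A window was matched to 133 of the 238 regions. The 8 stretches below are the 250 bases before a start, 5′ to 3′ on the gene's strand, with capitals for the bases that lay under a peak in all 4 METTL14 libraries. They are shown because they let a reader see what kind of sequence lay under a constant peak, and what lay beside it, upstream of a start. Rab11fip5 (chr6:85374635-85374884, minus strand), Pcdh10 (chr3:45378148-45378397, plus strand) and Garnl3 (chr2:33130620-33130869, minus strand) are the 3 of the 8 best ordered windows with at least 30 such bases. Mib2 (chr4:155669255-155669504, minus strand), 1700030J22Rik (chr8:116978654-116978903, minus strand), Cactin (chr10:81320853-81321102, plus strand), Nr6a1 (chr2:38926462-38926711, minus strand) and Rita1 (chr5:120612590-120612839, minus strand) were added after their values were seen. They are the 5 best ordered windows with at least 100 such bases, out of 36.
Rab11fip5: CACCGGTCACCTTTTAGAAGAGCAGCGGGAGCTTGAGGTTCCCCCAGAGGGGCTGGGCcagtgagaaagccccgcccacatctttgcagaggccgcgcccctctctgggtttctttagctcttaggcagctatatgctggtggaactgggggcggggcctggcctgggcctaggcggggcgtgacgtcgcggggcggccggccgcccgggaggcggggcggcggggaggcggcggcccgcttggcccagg
Pcdh10: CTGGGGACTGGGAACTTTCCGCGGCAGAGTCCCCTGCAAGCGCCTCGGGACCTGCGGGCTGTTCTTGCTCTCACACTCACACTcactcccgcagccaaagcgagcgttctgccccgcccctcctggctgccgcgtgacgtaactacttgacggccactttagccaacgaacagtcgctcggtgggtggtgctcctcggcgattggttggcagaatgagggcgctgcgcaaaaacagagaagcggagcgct
Garnl3: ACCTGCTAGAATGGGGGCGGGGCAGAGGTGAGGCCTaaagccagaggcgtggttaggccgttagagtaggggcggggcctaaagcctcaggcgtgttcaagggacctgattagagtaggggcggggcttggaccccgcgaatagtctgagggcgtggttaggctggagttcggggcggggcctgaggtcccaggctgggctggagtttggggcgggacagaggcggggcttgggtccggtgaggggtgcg
Mib2: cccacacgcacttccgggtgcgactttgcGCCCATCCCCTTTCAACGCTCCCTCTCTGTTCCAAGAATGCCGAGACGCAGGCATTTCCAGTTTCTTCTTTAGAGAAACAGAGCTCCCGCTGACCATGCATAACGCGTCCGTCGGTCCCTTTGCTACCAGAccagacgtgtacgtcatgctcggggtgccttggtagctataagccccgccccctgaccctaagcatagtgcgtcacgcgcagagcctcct
1700030J22Rik: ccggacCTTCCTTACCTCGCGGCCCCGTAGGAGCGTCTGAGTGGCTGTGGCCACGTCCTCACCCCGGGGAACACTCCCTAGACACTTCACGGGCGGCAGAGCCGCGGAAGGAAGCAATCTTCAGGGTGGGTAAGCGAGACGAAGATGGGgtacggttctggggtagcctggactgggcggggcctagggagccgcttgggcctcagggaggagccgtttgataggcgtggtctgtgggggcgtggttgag
Cactin: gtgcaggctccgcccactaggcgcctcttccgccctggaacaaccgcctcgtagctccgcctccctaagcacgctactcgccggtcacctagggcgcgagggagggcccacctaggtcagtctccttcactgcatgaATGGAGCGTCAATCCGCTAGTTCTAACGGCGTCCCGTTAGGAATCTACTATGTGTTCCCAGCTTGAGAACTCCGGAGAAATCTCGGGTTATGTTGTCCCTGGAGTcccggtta
Nr6a1: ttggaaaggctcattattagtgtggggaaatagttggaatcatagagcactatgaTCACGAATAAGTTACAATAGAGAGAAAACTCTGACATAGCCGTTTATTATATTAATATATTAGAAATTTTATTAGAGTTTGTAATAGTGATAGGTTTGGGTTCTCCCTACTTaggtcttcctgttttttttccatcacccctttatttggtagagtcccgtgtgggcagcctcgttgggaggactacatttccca
Rita1: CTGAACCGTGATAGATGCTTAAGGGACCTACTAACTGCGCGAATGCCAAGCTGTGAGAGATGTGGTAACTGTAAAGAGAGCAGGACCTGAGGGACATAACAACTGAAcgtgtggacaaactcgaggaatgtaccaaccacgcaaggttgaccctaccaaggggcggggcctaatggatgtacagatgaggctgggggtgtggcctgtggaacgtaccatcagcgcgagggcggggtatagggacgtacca

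Rab11fip5 encodes an effector of the vesicle GTPase Rab11, Pcdh10 a protocadherin of neuronal contacts, and Mib2 a ubiquitin ligase of the Notch pathway. Nr6a1 encodes a nuclear receptor known to repress Oct4 in differentiating cells, and Rita1 a protein that removes the Notch factor RBPJ from the nucleus. The capitals end 193 bases before the start at Rab11fip5, 168 bases before it at Pcdh10 and 9 bases before it at Cactin. The Rab11fip5 window had a GC content of 73.3%, and the Nr6a1 window 42.3%. The stretches therefore range from GC-rich to AT-rich. GC boxes, the GGGCGG letters bound by SP factors and their complement, lay mostly in the lower-case part, which also holds most printed bases. At Rab11fip5, with 58 of 250 bases in capitals, none of the 5 GC boxes was in capitals. At Garnl3, with 36 of 250, only the GC box from 236 to 231 bases before the start was in capitals. The gene span of Garnl3 extends 877 bp beyond the region, so its printed start is one inside the annotated gene.

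Most of the regions lay at gene starts. Of the 238 regions, 184 (77.3%) had a RefSeq start of a protein-coding gene within 2 kb, 13 (5.46%) had gene ends only, and 41 (17.2%) lay at boundaries of genes without a strand in the tables used here. Among boundary regions called in 3, 2 and 1 libraries, the share with a start was 75.5%, 73.1% and 69.8%. The nearest gene boundary was inside the region in 34 cases and within 100 bp in 115 cases (48.3%). It lay within 500 bp in 186 cases (78.2%). Because the rule itself required a boundary within 2 kb, these distances are a description. Just inside that limit were the regions nearest to Brox at 1898 bp, Slc43a2 at 1887 bp and Peg10 at 1834 bp. Just outside it were constant regions nearest to Sox17 at 2031 bp, Pcdh10 at 2198 bp and Hoxc6 at 2201 bp.

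METTL14 peaks flanked the start more often than they sat on it. The centre of the region's peaks, averaged over the 4 libraries, lay within 250 bp of the start in 117 of 184 regions (63.6%), and 118 of the 184 centres (64.1%) were upstream. By 100-bp steps, 37 centres fell 300 to 200 bp upstream and 28 fell 200 to 100 bp upstream. The last 100 bp before the start held 11 centres. Downstream, the first 100 bp held 20 centres, the next 100 bp held 33, and the next held 1. There was thus a group of peaks upstream, a dip just before the start, and a second group downstream with few centres beyond 200 bp. In single libraries that edge was less sharp. The step from 200 to 300 bp downstream held 3 and 3 centres in the Mettl3 CKO libraries, against 2 and 6 in the Mettl3 control libraries. Only 31 of the 184 regions (16.9%) covered the start base. Centres 300 to 100 bp upstream made up 35.3% in the constant regions, against 37.1%, 31.6% and 29.4% in boundary regions with a start that were called in 3, 2 and 1 libraries. In that share the constant regions lay within the range of the others. So did centres from -100 to 100 bp, at 16.9%, against 16.3%, 21.1% and 19.3%. Centres 100 to 200 bp downstream made up 17.9%, against 15.9%, 14.7% and 12.4%. Upstream centres made up 64.1%, against 62.9%, 59.4% and 60.9%. The last 2 shares were slightly above those of the others, and no test was made.

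The rule kept only regions in which peaks of all 4 libraries merged, so the positions relative to the start had to be alike between libraries and are given as a description. The median centre lay at -144.5 and -157.5 bp in the Mettl3 CKO libraries, against -147.5 and -161.0 bp in the Mettl3 control libraries, where negative values are upstream. The start base was covered in 22 and 22 of the 184 regions in the Mettl3 CKO libraries, against 23 and 18 in the Mettl3 control libraries. The medians of the genotypes overlapped. Peak centres within 250 bp numbered 117 and 119 in the Mettl3 CKO libraries, against 118 and 117 in the Mettl3 control libraries.

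**Figure D1:**
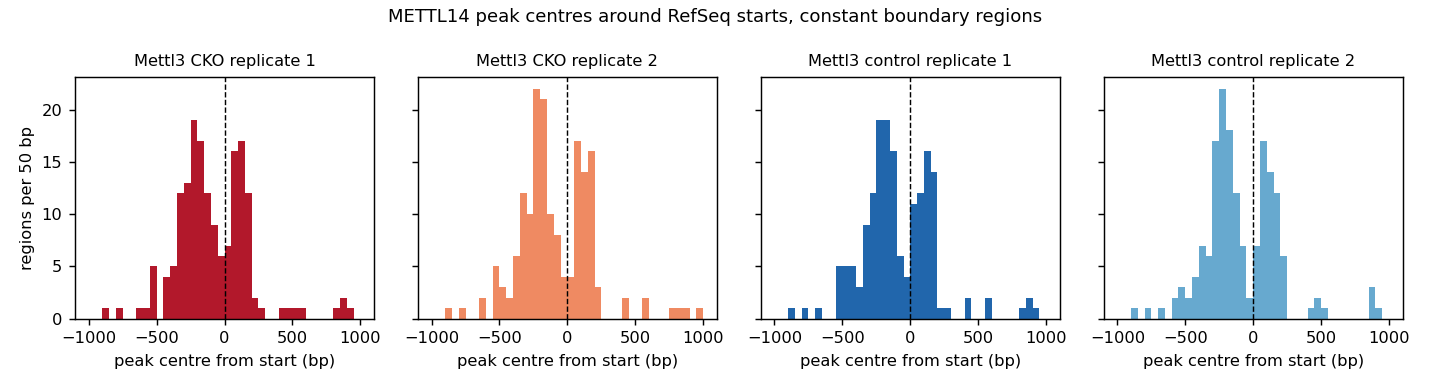
Distance of the METTL14 peak centre from the RefSeq start (bp, negative upstream, bins of 50 bp) for the constant boundary regions at a start, with 1 panel per library, Mettl3 CKO left of Mettl3 control. Of 184 regions, the 169 with centres within 1000 bp are drawn, and each panel shows an upstream and a downstream group with a dip near the dashed line at the start.

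Within a region the peaks had to overlap or form a chain, which limits how far their centres can differ. The width of the regions after merging ranged from 150 to 510 bp with a median of 194 bp, and 235 of the 238 had a single peak in each library. The 4 peak centres of a region spanned a median of 44.5 bp, with a range of 1 to 288 bp. The closest were at Hoxa7 and at Cic, which encodes a transcriptional repressor, where the 4 centres lay within 1 bp. The widest was the Sfi1 region at chr11:3199454-3199963 (Gm51877) at 510 bp, followed by Cdkn2b at 437 bp, Ankrd10 at 404 bp, Myh10 at 402 bp, and Cirbp and Foxl2 at 390 bp each. Cdkn2b encodes the CDK4 and CDK6 inhibitor p15, and its 4 centres spanned 288 bp.

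Distances between peak centres of different libraries were set side by side for pairs of libraries of different genotype and of the same genotype. The rule used these positions and limits the distances, so they are a description with no test. The mean distance between the nearest peak centres of a region was 33.3 bp between genotypes, against 32.1 bp within a genotype. The difference was 1.27 bp over 238 regions. Between the Mettl3 CKO libraries the mean distance was 32.2 bp, and between the Mettl3 control libraries it was 31.9 bp. The pairs of different genotype gave 34.6, 32.2, 32.0 and 34.5 bp. The Mettl3 CKO pair thus lay within the range of the pairs of different genotype, and the Mettl3 control pair was just below it. With only regions that had 1 peak in each library the difference was 0.853 bp.

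The deposited order of a list gave a second description. What the order means is not given in the sources used here, and a place of 0% is the top of a list. The 238 regions had a median place of 17.8% and 37.6% in the Mettl3 CKO lists, against 24.3% and 21.8% in the Mettl3 control lists. As a share of list length, the regions thus stood lowest in the shortest list, where the same place number gives a larger percentage. Constant regions away from gene boundaries stood nearer the top, at 4.82% and 14.4% in the Mettl3 CKO lists, against 5.85% and 5.15% in the Mettl3 control lists. Boundary regions called in 1 library stood lower than the constant ones, at 62.6% and 74.2% in the Mettl3 CKO lists, against 59.1% and 58.6% in the Mettl3 control lists. The order and the membership come from the same lists, so no test was made.

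**Figure D2:**
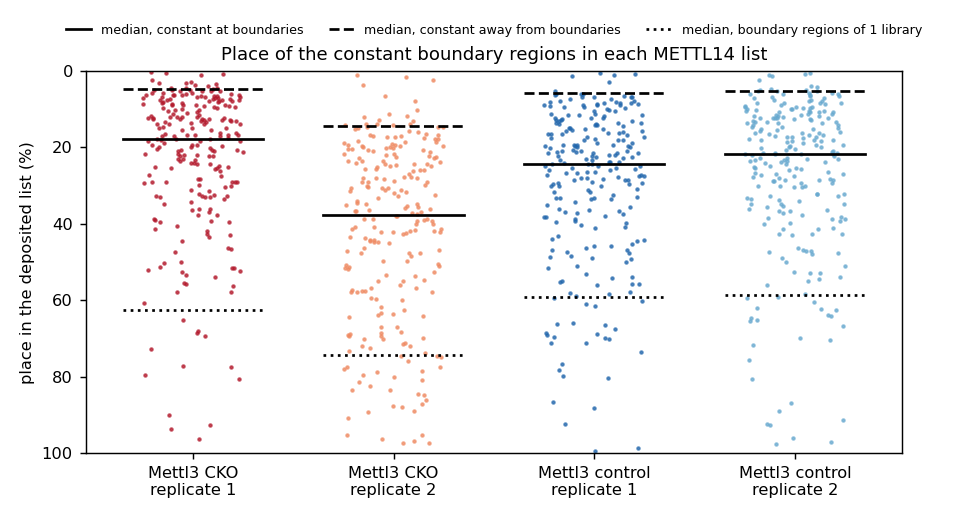
Place of each constant boundary region in the deposited METTL14 list (%, 0 at the top), with 1 point per region and library, Mettl3 CKO left of Mettl3 control. Lines are medians, and in each library the constant boundary regions (17.8% to 37.6%) lie between constant regions away from boundaries and boundary regions of 1 library.

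The 5 best placed regions were not promoters of developmental genes. First came 2 regions of the mitochondrial genome, at chrM:15467-15708 and chrM:16055-16221, both within 2 kb of a boundary of CYTB, the cytochrome b gene. No gene of any type in the table overlaps them, and they lie beyond the transfer RNA genes that follow CYTB. The first stood at places 14 and 15 in the Mettl3 CKO lists, against 14 and 14 in the Mettl3 control lists. Next came a region inside Lars2, which encodes the mitochondrial leucyl-tRNA synthetase, 579 bp from the gene's end, at places 31 and 32 in the Mettl3 CKO lists, against 35 and 36 in the Mettl3 control lists. Then came a region inside Aida, 1898 bp from the start of Brox, at places 46 and 52, against 41 and 47. The fifth was the Sfi1 region, 1581 bp from the end of Gm51877, at places 94 and 95, against 93 and 85. These places hardly differed between libraries, although the lists differ in length. No peaks were removed here for lying in repeated sequence or in stretches of high background signal. Whether these regions reflect METTL14 binding was not tested.

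Hox genes followed. Hox proteins are homeodomain transcription factors that set position along the body axis, and their genes sit in 4 clusters. Of 39 Hox genes, 14 (35.9%) lay within 2 kb of a constant region, against 1.36% of all protein-coding genes. The clusters held 6 of 11 Hoxa genes, 3 of 10 Hoxb genes, 1 of 9 Hoxc genes and 4 of 9 Hoxd genes. Genes of a cluster are neighbours, and the 14 genes shared 11 regions, so they are not independent. In any METTL14 library, 34 of the 39 had a region within 2 kb, against 3526 of 21900 protein-coding genes (16.1%). Without the shortest list, 16 Hox genes lay near a region called in the other 3 libraries.

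The Hox regions were spread over starts, gene bodies and ends. The best placed lay inside Hoxa7 at chr6:52217360-52217509, 1064 bp from its start, at places 119 and 111 in the Mettl3 CKO lists, against 190 and 139 in the Mettl3 control lists. A region at chr2:74686569-74686739, 277 bp from the Hoxd11 end and also within the span of Hoxd10, stood at places 110 and 146, against 210 and 145. The region 1024 bp from the end of Hoxa9 stood at places 124 and 160, against 227 and 181. Places are counted in lists of different lengths. As a share of its list, the Hoxa7 region stood at 3.03% and 7.71% in the Mettl3 CKO lists, against 6.07% and 3.92% in the Mettl3 control lists, and the genotypes overlapped. Hoxd9 had a region over its start, with centres 64 and 73 bp downstream in the Mettl3 CKO libraries, against 6 bp upstream and 64 bp downstream in the Mettl3 control libraries. The region shared by Hoxa5 and Hoxa6 had its centre 172 bp downstream of the Hoxa5 start. Others were at Hoxa3, Hoxb2, Hoxb7 with Hoxb8, Hoxc10, and Hoxd12 with Hoxd13.

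Developmental transcription factor genes outside the Hox clusters were near a constant region in 10 of 151 cases (6.62%, against 1.36% of all protein-coding genes). More of them, 103 of the 151 (68.2%), had a region in at least 1 library, against 16.1% of all protein-coding genes. A share above that of all genes was thus not particular to the constant regions. Tfap2b, a factor of neural crest and kidney, had a region 1313 bp from its gene boundary, at places 139 and 227 in the Mettl3 CKO lists, against 209 and 273 in the Mettl3 control lists. Pou3f2, a neural factor also called Brn2, had its region upstream, with centres at -317 and -307 bp in the Mettl3 CKO libraries, against -309 and -308 bp in the Mettl3 control libraries. Isl1, a LIM homeodomain factor of motor neurons and heart, had its region 117 and 150 bp downstream of the start in the Mettl3 CKO libraries, against 117 and 118 bp in the Mettl3 control libraries. The genotypes overlapped in place at Tfap2b and in position at Pou3f2 and Isl1. Others were Foxl2, Gbx2, Hmx1, Onecut1, Onecut2 and Otx1.

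The 21 regions near Hox or other developmental factor genes stood higher in the lists than the remaining 217. Their median place was 5.86% and 16.8% in the Mettl3 CKO lists, against 8.57% and 7.50% in the Mettl3 control lists. The remaining regions had medians of 19.3% and 39.3% in the Mettl3 CKO lists, against 25.8% and 23.6% in the Mettl3 control lists. The gap had the same direction in each of the 4 libraries. Of the 12 developmental regions with a known start, 6 had centres within 250 bp of it, against 111 of 172 (64.5%) for the remaining regions.

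Immediate early genes, which serum and growth factors induce within minutes, were marked at 3 of 23 (13.0%, against 1.36% of all protein-coding genes). In at least 1 library, 11 of the 23 (47.8%) had a region within 2 kb, against 16.1% of all protein-coding genes. Egr1, a zinc finger factor, had a region 143 bp from its boundary. Fos, an AP-1 subunit, had its centre 165 bp upstream of the start, and Fosb, a related subunit, 130 bp upstream. The place of the Fos region varied between libraries, at 92.6% and 24.6% in the Mettl3 CKO lists, against 15.8% and 11.9% in the Mettl3 control lists. The first of these is near the bottom of its list.

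Chromatin and m6A lists had 1 marked gene each. Polycomb and H3K27 demethylase genes were marked at 1 of 40 (2.50%, against 1.36% of all protein-coding genes), namely Cbx8, a chromodomain subunit of Polycomb repressive complex 1. Its centres lay at -18 and -92 bp in the Mettl3 CKO libraries, against -15 and 44 bp in the Mettl3 control libraries. Both Mettl3 CKO centres thus lay upstream of both Mettl3 control centres at this region, but the nearest, at -18 and -15 bp, almost met. This is a single region, and no test was made. Of 27 m6A factor genes, 1 was marked (3.70%, against the same 1.36%), namely Hnrnpa2b1, an RNA-binding protein described as a nuclear m6A reader, which shares its region with Cbx3, the gene of a heterochromatin protein. Neither Mettl3 nor Mettl14 lay near a constant region. In any library, Mettl3 had no region within 2 kb and Mettl14 had 1 region, called in 1 library.

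The remaining lists of cell functions had between 1 and 4 marked genes each, to be read against the 1.36% of all protein-coding genes. Cell cycle and licensing genes were marked at 4 of 75 (5.33%), namely Cdkn2b, Gins1, Gins2 and Mcm4, of which the last 3 encode parts of the replicative helicase. Transfer RNA synthetases were marked at 2 of 39 (5.13%, Lars2 and Wars2) and proteasome genes at 2 of 52 (3.85%, Psmd1 and Psmd5). Replication-dependent histones were marked at 2 of 63 (3.17%), where H2bc3 and H3c3 share a region. Ribosomal proteins were marked at 2 of 85 (2.35%, Rpl32 and Rpl4) and splicing genes at 2 of 93 (2.15%, Hnrnpa2b1 and Snrpd2). Nuclear genes for mitochondrial ribosomes and respiration were marked at 3 of 181 (1.66%), namely Mrpl38, Mrpl58 and Uqcrq. Trithorax and other chromatin genes were marked at 1 of 54 (1.85%, Kdm4a), signalling genes at 1 of 61 (1.64%, Fgf9), translation factors at 1 of 79 (1.27%, Eif3k), and RNA polymerase II and Mediator genes at 1 of 95 (1.05%, Polr2b). These shares rest on 1 to 4 genes each and were not tested.

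Core pluripotency genes were marked at 1 of 27 (Gbx2, which also stands in the developmental list) and fibroblast markers at 0 of 20, which is 3.70% and 0%, against 1.36% of all protein-coding genes. In any METTL14 library, 12 of the 27 pluripotency genes (44.4%) and 3 of the 20 fibroblast markers (15.0%) had a region within 2 kb, against 16.1% of all protein-coding genes. The same share in the lists of cell functions above ranged from 21.15% (proteasome) to 66.7% (replication-dependent histones). Cell cycle and licensing genes were at 45.3%, so the pluripotency share lay within that range. Zinc finger genes named Zfp were marked at 3 of 461 (0.651%), and imprinted genes at 2 of 35, Peg10 and Sgce, which share 1 region. Olfactory receptors were marked at 0 of 1106, which allows up to 3 of 1106, and 2-cell stage genes at 0 of 18 matched of 24 listed. In any library 1 olfactory receptor gene and 1 2-cell gene had a region. All 22 lists together took in 49 of the 238 regions, and 189 lay near no listed gene.

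**Figure D3:**
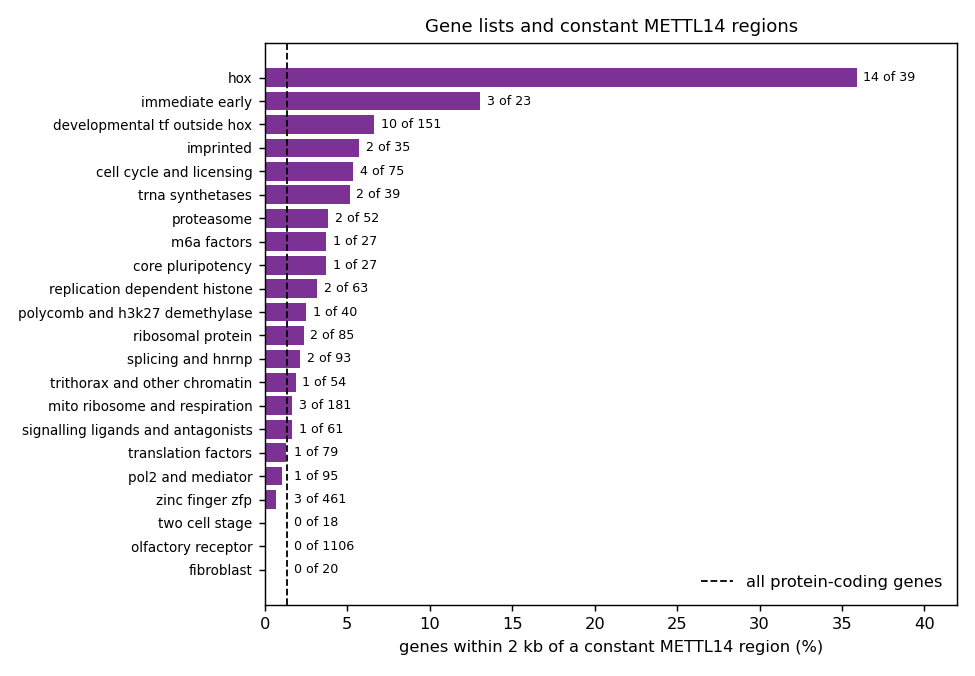
Share of the genes of each list within 2 kb of a constant METTL14 region (%), with the number of genes beside each bar and the share of all protein-coding genes (1.36%) as a dashed line. Hox genes reach 35.9%, while olfactory receptors, 2-cell stage genes and fibroblast markers are at 0.

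A few genes had more than 1 constant region. They were Ankrd10, Dcaf11, Ddx54, Rita1, Efcab12, Nr2e1, CYTB and ND6, and 5 pairs of regions lay within 2 kb of each other. Ddx54, an RNA helicase gene, and Rita1 share both of theirs across 285 bp, 1 downstream of the Ddx54 start and 1 upstream of the Rita1 start. Nr2e1, a nuclear receptor of neural stem cells also called Tlx, had 1 region over its start and 1 centred 910 bp downstream. Of the 238 regions, 22 lay at divergent starts within 1 kb of each other. Within 2 kb, 174 had 1 gene, 60 had 2 genes and 4 had 3 or more. The share at divergent starts was 9.24%, against 11.7%, 9.81% and 7.54% among boundary regions of 3, 2 and 1 libraries.

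The METTL3 lists had no part in choosing the regions, so they give an independent readout. METTL3 peaks overlapped 4 and 5 of the 238 regions in the Mettl14 CKO libraries, against 6 and 5 in the Mettl14 control libraries. The means were 4.5 ± 0.707 and 5.5 ± 0.707 regions (SD, n = 2 each). The groups met at 5 regions, and the difference was -1.0 region (exact permutation, 2-sided p = 0.67). With 2 libraries against 2, p cannot go below 0.33, so the test could not have shown a difference. Of the 7 regions met by any METTL3 library, 4 were met by all 4, so the difference rests on the few others. The METTL3 lists held 242 and 344 peaks in the Mettl14 CKO libraries, against 353 and 341 in the Mettl14 control libraries.

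METTL3 peaks met few of the boundary regions and many of the constant regions elsewhere. Any METTL3 library overlapped 7 of 238 boundary regions (2.94%, Wilson interval 1.43% to 5.95%), against 108 of 230 constant regions away from boundaries (47.0%, 40.6% to 53.4%) and 3.34% of all merged METTL14 regions. The boundary share is thus near that of all merged regions, which include those away from boundaries. Among boundary regions called in 3, 2 and 1 libraries the share was lower, at 1.60%, 1.48% and 0.476%. In the Mettl14 CKO libraries 1.68% and 2.10% of the boundary regions and 37.0% and 40.9% of the others were overlapped. In the Mettl14 control libraries 2.52% and 2.10% of the boundary regions and 39.1% and 35.7% of the others were overlapped. The gap was present in all 4 METTL3 libraries. Some constant regions lie outside chromosomes 1 to 19 and X, and nearly all of these are away from boundaries. With those chromosomes only, 427 of the 468 constant regions remained, among them 236 of the 238 at boundaries. METTL3 overlap was not counted for those chromosomes alone. Antibody and cell line changed together between the METTL14 and METTL3 libraries, and their effects cannot be told apart. Without the shortest METTL14 list, 2.21% of the boundary regions and 36.1% of the others were overlapped.

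The 7 overlapped boundary regions included 4 of the 5 best placed ones. METTL3 peaks of all 4 libraries met the first mitochondrial region, the Lars2 region, the Brox region and the Sfi1 region. Whether these 4 reflect binding of either protein was not tested, and no peaks in repeated or high-background sequence were removed. Tmem267 had METTL3 peaks in the second Mettl14 CKO and the first Mettl14 control library. Iqsec1, which encodes an exchange factor for ARF GTPases, had 1 in the first Mettl14 control library, and Zfpm1, which encodes the GATA partner FOG1, had 1 in the second Mettl14 control library. None of the 21 regions near Hox or other listed developmental factor genes was overlapped, against 7 of all 238 regions (2.94%). At that share few or none of 21 regions would be overlapped, so the absence says little about these genes.

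**Figure D4:**
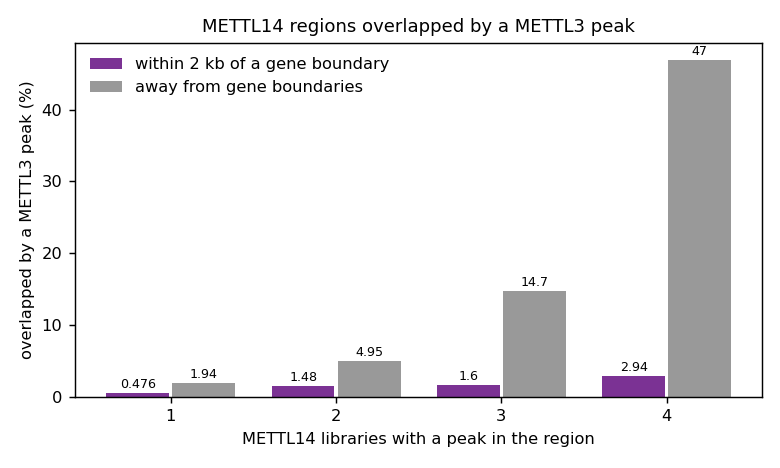
Share of METTL14 regions overlapped by a METTL3 peak of at least 1 library (%), by the number of METTL14 libraries with a peak in the region, for regions at gene boundaries and away from them. At boundaries the share is 0.476% to 2.94%, and away from them it rises to 47.0% in regions called in 4 libraries.

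The promoters at these regions were rich in CpG. Among the 300-bp RefSeq windows, 168 windows of 151 genes were overlapped by a constant boundary region. Their median GC content was 62.7% and their median ratio of observed to expected CpG was 0.833, against 55.7% and 0.510 in 19398 windows that no METTL14 region overlapped. Windows with a GC content of at least 55% and a ratio of at least 0.65 made up 77.4% of the overlapped ones and 34.8% of those overlapped by none. Windows overlapped by a boundary region of 1 library were close to the constant ones, with a median GC content of 63.0%, a ratio of 0.824 and 70.5% CpG-rich. CpG richness was therefore shared with boundary regions called in fewer libraries.

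**Figure D5:**
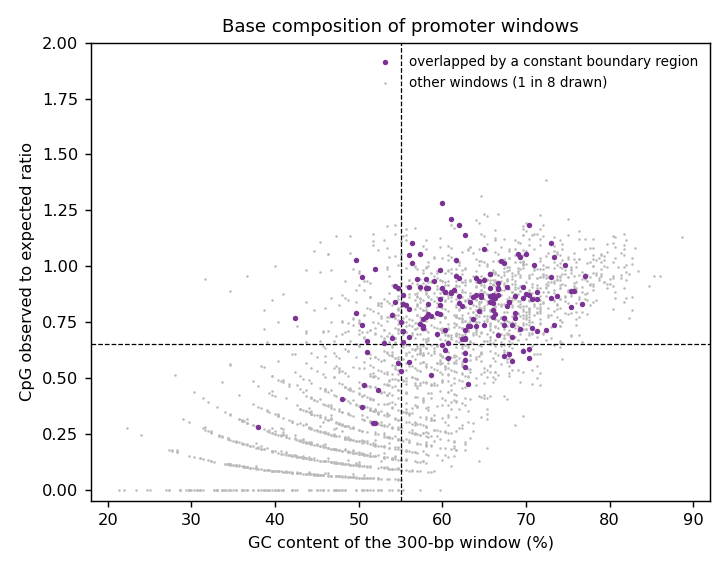
GC content (%) and ratio of observed to expected CpG of 300-bp RefSeq promoter windows, for the 168 windows overlapped by a constant boundary region and for 1 in 8 of the other windows. Dashed lines mark 55% and 0.65, and 77.4% of the overlapped windows lie above both.

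Short motifs were counted on both strands of the windows, 11 in all. GGGCGG, the GC box, stood in 79.8% of the overlapped windows, 73.0% of those of 1 library and 46.2% of all 21263 windows. TGACG, the short form of the cAMP response element, stood in 46.4%, 40.0% and 23.6%, and the full element TGACGTCA, which contains it, in 5.95%, 6.00% and 2.23%. The Myc and USF E-box CACGTG stood in 13.7%, 13.9% and 7.84%, the ETS core CCGGAAG in 16.1%, 20.0% and 11.6%, and CCAAT in 47.6%, 45.8% and 38.2%. The NRF1 letters GCGCATGC stood in 5.95%, 6.10% and 3.52%, and the YY1 core AAGATGGC in 3.57%, 5.31% and 3.05%. TATAAA was rarer than in all windows, at 4.76%, 6.79% and 12.6%, as was the AP-1 site TGANTCA, at 1.19%, 3.84% and 6.99%. For each motif apart from the YY1 core, the share in windows of constant regions was thus nearer to that of regions called in 1 library than to that of all windows.

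TCTCGCGA, an element of some housekeeping promoters, stood on either strand in 12 of the 168 overlapped windows (7.14%), in 3.93% of the windows of 1 library and in 1.41% of all windows. The 12 windows belong to 9 genes, and some of them overlap each other. With matches that overlap in the genome counted once, they hold 10 separate elements. Of these, 4 lay inside the merged region and 6 outside it. Only 1 element, at Ube2d3, which encodes a ubiquitin-conjugating enzyme, lay under a peak in all 4 libraries. A match is a description of the letters and shows no binding.

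The bases under the peaks were less GC-rich than the rest of the same window. With at least 50 bases on each side, the median difference was -3.28 and -4.59 percentage points in the Mettl3 CKO libraries, against -4.21 and -5.15 in the Mettl3 control libraries. The bases under the peak were the less GC-rich side in 63 of 92 and 65 of 92 windows in the Mettl3 CKO libraries, against 68 of 96 and 65 of 92 in the Mettl3 control libraries. The direction was the same in all 4 libraries, and the genotypes overlapped. Regions of 3, 2 and 1 libraries had median differences of -3.49, -1.71 and -1.74 percentage points. GC content also rises toward the start in windows without any region, from 51.6% in the first 100 bases to 59.4% around the start. In the CpG-rich windows among them it rises from 62.0% to 71.1%, and in the 133 windows of constant regions from 58.8% to 66.4%. The part of position in the difference was not tested. Of 293 GC boxes in the 133 windows, 85 (29.0%) lay inside the region, which covered 40.5% of the bases. In the printed stretches, a GC box was in capitals at Garnl3 and at 1700030J22Rik, and none at Rab11fip5, Pcdh10, Mib2, Cactin and Rita1. GC boxes also grow more frequent toward the start in windows without any region. There they stood in 11.6% of windows in the first 100 bases and in 27.25% around the start. In the CpG-rich windows without any region these shares were 25.6% and 52.6%. In the 133 windows of constant regions they were 27.8% and 56.4%. The part of position was not tested here either.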

How the data were processed

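Peak lists of 4 METTL14 and 4 METTL3 libraries were used. Per the submitters' processing notes, CASAVA, Trimmomatic 0.38, Bowtie2 2.4.1, SAMtools, HOMER and the mm10 build were used, with no role or order given. Each deposited list holds peak positions and a deposited score, which is 1 for every peak. Replicates were not pooled. The sources used here state neither read depth nor calling threshold. Peaks sharing at least 1 bp were merged with Python 3.11.15. Gene names, boundaries and promoter windows came from RefSeq tables for GRCm38.p6. Strand was known for 17492 of 21900 protein-coding genes (79.9%), and 60.5% of these have a listed start at the gene's own boundary. Shares have 95% Wilson intervals (scipy 1.17.1), for counting error only. Libraries were compared by exact permutation. Merging was tested on simulated peaks. The named regions were the best placed by list order, members of the gene lists, those met by METTL3, those at the 2 kb limit and the widest. Members, lists and tests were chosen with earlier results of these data known. Exons, introns and regions outside promoter windows were not analysed here. A few genes that the rule selects are not reported here.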

Additional observations from a re-analysis of the deposited data

How the results depend on the processing

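The number of constant regions at gene boundaries was 238, and depended most on the lists required. It was 364 with peaks widened by 250 bp, 123 with the upper 50% of each list and 143 with lists of equal length, and 278 to 407 when a library was left out, the highest without the second Mettl3 CKO library. The share at boundaries, 50.9%, was 44.9% with a 1 kb window, 58.6% with a 5 kb window, 58.6% with widened peaks, 40.9% with the upper 50% of each list, 42.3% with equal lengths and 60.3% with genes of every type. Leaving out a library gave 52.4% to 53.2%. With chromosomes 1 to 19 and X only, 236 of 427 constant regions lay at boundaries (55.3%). The METTL3 difference of -1.0 region ranged from -1.5 to -0.5 without a library, and all alternatives kept its direction. As a share of each METTL3 list, which allows for list length, the difference was only -0.0298 percentage points. With the replicate number as a block it was -1.0 (exact permutation, p = 1.0, smallest possible 0.5), and the labels do not say that the numbers pair libraries. The distance between genotypes minus within them was 1.08 to 1.54 bp without a library. Alternatives chosen after seeing the data gave 13 to 16 Hox genes without a library and 14 with equal lengths. They gave 2.21% to 2.88% of boundary regions met by METTL3 without a METTL14 library, and 4.90% with equal lengths. Read depth, which is unknown, limits every count.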

Other observations

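Chromosome X held 0 of the 238 constant boundary regions, which allows a share of up to 1.26%, while it holds 966 of the 21900 protein-coding genes (4.41%). Boundary regions called in 1 to 3 libraries numbered 14 on chromosome X (0.385%), and 2 constant regions away from boundaries lay there. The lists held 14 and 7 peaks on chromosome X in the Mettl3 CKO libraries, against 15 and 21 in the Mettl3 control libraries. These are 0.357% and 0.486% of the Mettl3 CKO lists, against 0.479% and 0.592% of the Mettl3 control lists.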
